A study of Mus musculus with 8 samples.

Results

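Regions of open chromatin at the ends of protein-coding genes that were called in every library of a fasted mouse liver ATAC-seq series were examined. A region of the deposited consensus set was taken as a member when peaks of all 8 libraries overlapped it by at least 1 bp and it lay within 1 kb of either end of a protein-coding gene (mm10 positions, RefSeq genes of GRCm38.p6). The members numbered 5859 of 49587 consensus regions (11.8%). They made up 52% of the 11258 regions called in all 8 libraries and 45.5% of the 12879 regions near a gene end. The peak calls chose the members, so their presence in every library is no result. The other 5399 regions called in all 8 libraries lay farther from gene ends and are called distal here.

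The livers came from 9-week-old male C57BL/6 mice fasted for 24 h. The 4 genotypes, with 2 libraries each, were wild type (WT), Cpt2 L-/-, Ppara -/- and Cpt2 L-/- ; Ppara -/-. In the labels the Cpt2 knockout is a liver knockout and, for the double knockout, the Ppara knockout is whole-body. The allele or driver behind the liver knockout is not given in the sources used here, nor is it stated whether the libraries of a genotype came from separate animals, so p-values measure only the spread between these libraries. Libraries with Ppara (wild type and Cpt2 knockout) are called Ppara-intact and the other 4 Ppara-null. Cpt2-intact (wild type and Ppara knockout) and Cpt2-null libraries are named in the same way. From its title, the series addressed how hepatic transcription depends on Ppara and on the oxidation of fatty acids. Liver is a mixed tissue, so fewer cells of a type and less accessible DNA per cell cannot be told apart.

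ATAC-seq marks DNA that a transposase can reach, and the start of an active gene, kept free of nucleosomes, is one of its strongest classes of signal. Many such starts lie in CpG islands, stretches rich in C, G and CpG pairs, and are open in most cell types, while distal enhancers tend to be open only in some. Ppara is a nuclear receptor for fatty acids that drives fat-burning genes in the fasted liver. Cpt2 is the carnitine palmitoyltransferase of the inner mitochondrial membrane, needed to oxidise long-chain fatty acids.

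The sequences at the starts of 7 members show how far these regions differ in promoter motifs. Each run spans 250 bases before to 50 bases from the gene's start (RefSeq, GRCm38.p6), 5′ to 3′ on the gene's strand. Capitals mark the CCAAT box (CCAAT or, on the other strand, ATTGG) and the GC box (GGGCGG or CCGCCC). The first 4 were chosen from the highest-ranked members overall and in the metabolic gene lists. They are G3bp1, a stress granule protein (chr11:55469502-55469801, plus strand), Edem3, which helps clear misfolded glycoproteins from the endoplasmic reticulum (chr1:151755124-151755423, plus strand), Mdh1, the cytosolic malate dehydrogenase (chr11:21571885-21572184, minus strand), and Msmo1, a sterol oxidase of cholesterol synthesis (chr8:64733529-64733828, minus strand). Cpt2 (chr4:107923540-107923839, minus strand) is shown as a targeted gene. Slc22a5, the carnitine importer OCTN2 (chr11:53891654-53891953, minus strand), is shown as the member that fell furthest without Ppara. Zfp422, a zinc finger gene (chr6:116628652-116628951, minus strand), is the lowest-ranked member.
G3bp1: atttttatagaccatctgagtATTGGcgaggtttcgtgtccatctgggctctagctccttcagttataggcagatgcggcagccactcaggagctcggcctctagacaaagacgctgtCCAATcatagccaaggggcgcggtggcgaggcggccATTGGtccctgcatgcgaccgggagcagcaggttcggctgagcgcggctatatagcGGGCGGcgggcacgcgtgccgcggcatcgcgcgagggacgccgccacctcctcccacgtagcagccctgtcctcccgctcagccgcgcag
Edem3: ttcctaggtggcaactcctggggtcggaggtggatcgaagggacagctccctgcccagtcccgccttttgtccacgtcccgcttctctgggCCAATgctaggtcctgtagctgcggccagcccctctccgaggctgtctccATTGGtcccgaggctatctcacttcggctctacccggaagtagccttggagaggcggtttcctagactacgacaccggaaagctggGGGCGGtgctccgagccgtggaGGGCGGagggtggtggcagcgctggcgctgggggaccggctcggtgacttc
Mdh1: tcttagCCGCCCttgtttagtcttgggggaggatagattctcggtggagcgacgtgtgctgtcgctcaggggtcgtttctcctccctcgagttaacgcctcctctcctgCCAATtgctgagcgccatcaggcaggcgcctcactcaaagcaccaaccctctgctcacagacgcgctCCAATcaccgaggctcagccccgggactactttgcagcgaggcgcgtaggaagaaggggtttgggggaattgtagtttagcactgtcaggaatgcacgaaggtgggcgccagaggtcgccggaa
Msmo1: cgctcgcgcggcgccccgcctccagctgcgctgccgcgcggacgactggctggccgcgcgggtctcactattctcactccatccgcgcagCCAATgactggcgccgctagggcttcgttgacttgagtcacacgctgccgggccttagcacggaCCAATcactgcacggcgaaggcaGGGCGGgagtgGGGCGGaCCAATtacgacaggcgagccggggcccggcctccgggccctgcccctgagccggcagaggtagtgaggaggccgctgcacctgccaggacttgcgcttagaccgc
Cpt2: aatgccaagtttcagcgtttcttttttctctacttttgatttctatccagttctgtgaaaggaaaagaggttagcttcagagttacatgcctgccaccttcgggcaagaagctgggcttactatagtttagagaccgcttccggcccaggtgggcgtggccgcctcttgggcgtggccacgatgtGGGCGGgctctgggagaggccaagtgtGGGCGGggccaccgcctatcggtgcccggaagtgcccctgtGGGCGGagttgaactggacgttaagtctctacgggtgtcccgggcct
Slc22a5: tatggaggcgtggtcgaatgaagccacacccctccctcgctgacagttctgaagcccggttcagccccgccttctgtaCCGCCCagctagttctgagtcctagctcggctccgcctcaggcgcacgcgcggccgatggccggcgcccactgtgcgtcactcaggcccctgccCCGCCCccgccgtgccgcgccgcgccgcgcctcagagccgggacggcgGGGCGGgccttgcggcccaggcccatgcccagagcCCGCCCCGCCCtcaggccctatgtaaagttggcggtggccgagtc
Zfp422: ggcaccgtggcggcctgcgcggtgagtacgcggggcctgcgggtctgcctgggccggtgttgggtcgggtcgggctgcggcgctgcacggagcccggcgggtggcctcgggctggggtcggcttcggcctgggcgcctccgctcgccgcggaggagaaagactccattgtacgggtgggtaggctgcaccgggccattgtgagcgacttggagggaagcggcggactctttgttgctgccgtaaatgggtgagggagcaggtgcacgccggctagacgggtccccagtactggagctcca

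The first 4 hold the CCAAT box and Cpt2, Slc22a5 and Zfp422 do not. Of all starts in members 45.1% held it, so these picked runs do not show how the motif goes with rank. Capitals for the GC box appear in each run except that of Zfp422. A match of letters describes the sequence and shows neither a bound factor nor a cause.

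Most members sat on the start of a gene. Of the 5859 members, 5051 (86.2%) held a gene end, 481 lay 1 to 500 bp from one and 327 lay farther, up to 1000 bp. Strand was taken from the RefSeq promoter table, which covers 17492 of 21887 protein-coding genes. By strand, 4464 members lay near a 5′ end alone, 197 (3.36%) near a 3′ end alone and 237 near both, and 961 had no strand in the table. Among the members with a 5′ end, 637 served 5′ ends of genes on opposite strands, the arrangement of a shared, bidirectional promoter. At the distance limit, the regions of Mnt and Aldoa lay 997 bp from a gene end and were members, while those of Rabgap1l at 1002 bp and Nab1 at 1005 bp were not.

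A gene end with a member was found for 6676 of 21887 protein-coding genes (30.5%). On the autosomes the share ran from 24.3% of the genes of chromosome 7 to 38.1% of those of chromosome 8. It was 12.5% on the X chromosome (121 of 966 genes) and 0 of 256 genes on the Y chromosome. Of the genes with a member, 6397 had 1, 270 had 2 and 9 had 3 or more.

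Members were wide regions. Their median width was 784 bp, with quartiles of 624 and 979.5 bp and a range of 344 to 2338 bp, against a median of 515 bp for distal regions called in all 8 libraries. Shared starts of opposite genes had a median width of 855 bp and regions at a 3′ end alone 574 bp. The widest were at the 3′ end of Ahsg (2338 bp), which encodes the secreted glycoprotein fetuin-A, at the start of Pou2f1 (2231 bp), a POU-domain transcription factor, and at Kmt2e (2144 bp), a chromatin regulator. The narrowest were at Sepsecs (344 bp) and Smoc1 (347 bp). The median of the members' mean percentile over the 8 lists was 71.4 for the narrowest (344 to 624 bp), 76.0 for those of 785 to 979 bp and 72.8 for the widest (980 to 2338 bp).

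The starts inside members were rich in C, G and CpG. Of 17492 genes in the promoter table, 4851 started in a member, 3566 in a region called in fewer libraries and 9075 in no region. The median GC content of the 300 bases around the start was 62.7% for members, 60.7% for regions called in fewer libraries and 49.7% where no region was called. The median ratio of observed to expected CpG was 0.818, 0.758 and 0.249 in the same order. The GC box, the site of Sp1-type zinc finger proteins, was present in 72.6%, 65.9% and 24.6%, and in 46.3% of all 17492 promoters. The ETS core (CCGGAA or TTCCGG) was present in 35.1%, 26.6% and 7.57%, and in 19.1% of all. The TATA box (TATAAA or TTTATA) went the other way, with 4.78%, 7.85% and 20.1%, and 13.3% of all. The half-site of nuclear receptors (AGGTCA or TGACCT) was found in 11.2%, 12.9% and 17.0%, and in 14.5% of all.

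The CCAAT box, read by the NF-Y complex, was more frequent at members, and members that held it ranked higher than those that did not. It was present in 45.1% of the starts in members, 33.7% of those in regions called in fewer libraries, 37.9% of those in no region and 39.0% of all. In a window of 40 to 120 bases before the start, 26.5% of member starts held it, against 16.9% in regions called in fewer libraries, 17.3% in no region and 19.8% of all 17492 promoters. By bins of 20 bases, the share of member starts with the motif was highest from 70 to 51 before the start (10.5%). It was 7.69% from 30 to 11 before the start, outside the window, and 6.41% from 110 to 91, inside it. The window of 40 to 120 bases was chosen after the positions had been seen.

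To compare ranks between libraries whose lists differ in length, each region was given a percentile of its highest −log10 p (the authors' value for each peak) among the 11258 regions called in all 8 libraries. A value of 100 is the strongest of these regions in that library. Members with the motif in the window (1144 regions) had median percentiles of 73.3 and 71.6 in wild type, 74.0 and 61.5 in Cpt2 knockout, 71.2 and 75.4 in Ppara knockout and 64.1 and 64.4 in double knockout. Members with a start in the table but no CCAAT (2375 regions) had medians of 48.3 and 44.5, 40.9 and 46.8, 43.9 and 50.6, and 39.3 and 39.1 in the same order. The 822 members with the motif elsewhere in the 300 bases lay between these values in every library. The first set was above the last in all 8 libraries, by 14.7 to 33.1 points and 25.3 on average. The average was 13.8 points when each list was limited to the same number of peaks, 14.1 in percentiles of the whole list and 12.3 over peaks with −log10 q of at least 20, where 7 of the 8 libraries kept the direction. Their median GC contents were 60.7% and 64%, and the difference was 23.1 points among members with the lowest promoter GC (up to 57.3%) and 22.3 among those with the highest (68.7% or more). Members with and without the nuclear receptor half-site differed by less, with medians of 56.2 and 57.7 in wild type 1 and 50.4 and 46.1 in double knockout 1. These are descriptions, and no test was made.

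**Figure D1:**
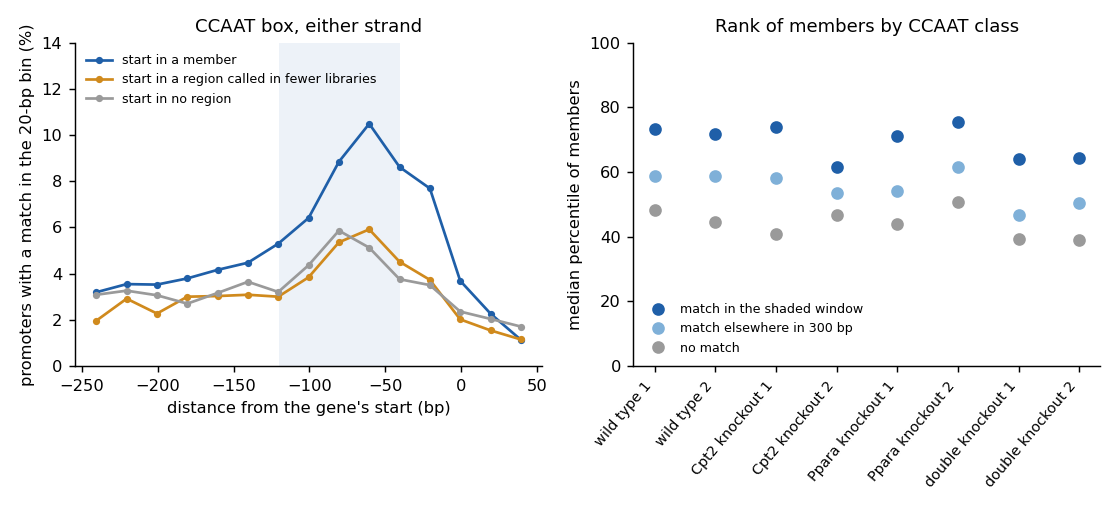
Left, the share of promoters (%) with a CCAAT box on either strand in bins of 20 bp, by distance from the gene's start (bp), for starts in members, in regions called in fewer libraries and in no region; the shaded window is 120 to 40 bases before the start. Right, the median percentile of members in each library by whether the start holds the motif in the window, elsewhere or nowhere; the first set lies between 61.5 and 75.4 and the last between 39.1 and 50.6.

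Within the whole list of each library, members ranked high, which the rule favours, since members had to be called in every list. Their median percentile was 81.3 and 84.3 in wild type, 84.3 and 82.3 in Cpt2 knockout, 71.7 and 71.9 in Ppara knockout and 69.7 and 62.2 in double knockout. The lists with Ppara hold 28733 to 39296 peaks and those without it 18132 to 22715, so these values describe each list and show no change between genotypes. Distal regions called in all 8 libraries ranked nearly as high, with a median mean percentile over the 8 lists of 71 against 73.3 for members. In all 8 lists, 528 members (9.01%) lay in the top 10% and 41 (0.7%) in the top 1%, while 46 lay under the 50th percentile.

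The top of the ranking held genes of widely different roles. The highest mean percentiles were those of Edem3 (99.9), G3bp1 (99.88), Trim45 (99.88), Zbtb20 (99.87), the shared start of Fto and Rpgrip1l (99.85) and Nedd1 (99.82). Zbtb20 is a repressor of alpha-fetoprotein in the liver, Fto an RNA demethylase and Nedd1 a centrosome protein. Edem3 ranged only from 99.59 to 99.88 among the regions called in all 8 libraries. At the other end were Zfp422 (mean 13.4) and the region by Timeless and Mip (13.8). For Zfp422 the shared-set percentile was 1.22 and 0.329 in wild type, 0.0178 and 2.86 in Cpt2 knockout, 3.46 and 3.44 in Ppara knockout and 3.98 and 0.293 in double knockout. It was near the floor in every library.

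Gene lists of pathways and cell types were used to see which genes had an open end in all libraries. Their shares are read against 30.5% of all protein-coding genes, and the lists were not tested. Of the cholesterol synthesis genes, 19 of 23 had a member, with a median mean percentile of 87.8 against 73.3 for all members. Msmo1 (99) and Hmgcs1 (98.2), the cytosolic HMG-CoA synthase, led that list. Genes of gluconeogenesis and fasting had a member in 16 of 20 cases, with a median of 85.9. They included Pck1, G6pc and Fbp1, enzymes specific to glucose production, and were led by Mdh1 (99.81) and by Crtc2 (97.9), a coactivator of the fasting response. Mitochondrial beta-oxidation had 15 of 20 genes with a member and the 26S proteasome 22 of 31. Respiratory complex I and RNA polymerase II with its general factors each had 20 of 36.

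The other lists of pathways also lay above the share of all genes. Hepatocyte transcription factors had a member in 13 of 22 cases, liver secreted proteins in 16 of 30, circadian clock genes in 11 of 21 and genes of the integrated stress response in 13 of 24. Known Ppara targets had a member in 25 of 50 cases, and another 21 had gene-end regions in fewer libraries only. Those with a member included Ehhadh, Cpt1a and Pdk4, which act in peroxisomal oxidation, carnitine-linked import and the brake on glucose oxidation. The Cyp4a genes, which encode fatty acid omega-hydroxylases, were among those with gene-end regions in fewer libraries. Immediate early and AP-1 genes had a member in 11 of 24 cases, and fatty acid and triglyceride synthesis genes in 7 of 19, with Fasn, Scd1 and Srebf1 among those lacking one. Cytosolic ribosomal proteins had 33 of 76, and reads from their processed pseudogenes can be hard to place.

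Cell type markers were checked in the same way. Of 5 hepatocyte markers, 4 had a member (Alb, Apoa1, Ttr and Serpina1a) and Cps1 had a region in fewer libraries. Of 20 markers of Kupffer, endothelial, stellate, bile duct and blood cells, 0 had a member, and 5 (Kdr, Lrat, Epcam, Sox9 and Cd79a) had a gene-end region in fewer libraries. Clec4f, Adgre1, Pecam1, Ptprc and Krt19 were among the 15 with no gene-end region in any library.

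**Figure D2:**
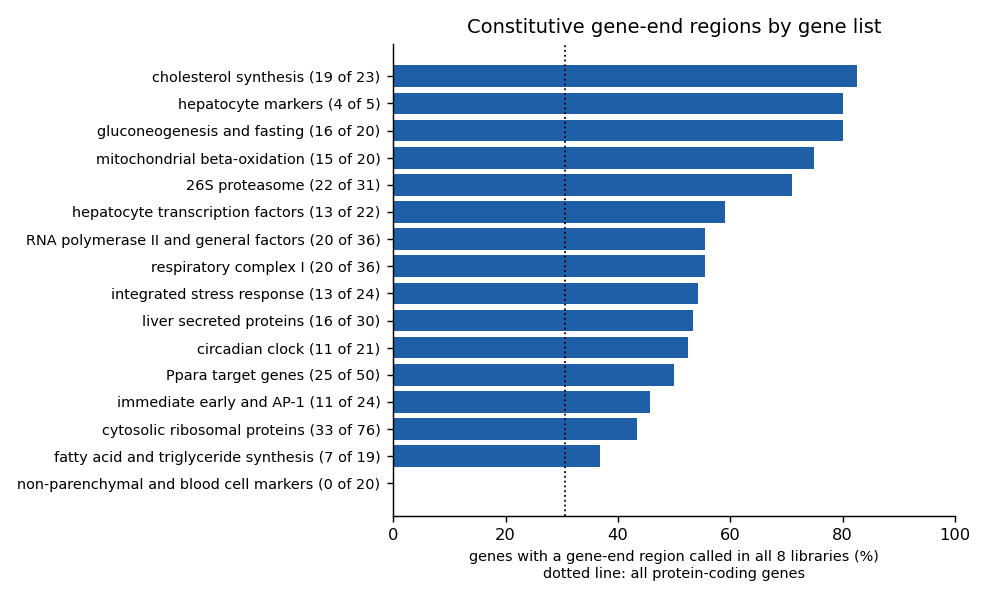
Share of the genes of each list (%) that have a gene-end region called in all 8 libraries, with the counts in brackets; the dotted line is the share of all protein-coding genes (30.5%). Cholesterol synthesis is highest with 19 of 23 genes, and the markers of other liver cell types have 0 of 20.

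The targeted genes had members of their own. The region at the start of Cpt2 (chromosome 4, 107923217 to 107923773) had percentiles of 10.5 and 10.9 in wild type, 12.0 and 5.97 in Cpt2 knockout, 35.5 and 24.0 in Ppara knockout and 1.06 and 12.3 in double knockout. The region at the start of Ppara (chromosome 15, 85734711 to 85736214) had 84.7 and 70.9, 37.2 and 43.2, 22.8 and 61.2, and 47.7 and 64.0 in the same order. Ppara-null and Ppara-intact percentiles overlapped at both. The peaks at the start of Ppara covered 1196 and 1428 bp in wild type, 1316 and 1194 bp in Cpt2 knockout, 374 and 353 bp in Ppara knockout and 398 and 397 bp in double knockout. This width was smaller in every Ppara-null library, without overlap, and was not tested for the single region. An open start does not check a knockout, since the deleted parts of the genes are not given in the sources used here.

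Across genotypes, members ranked lower against distal regions where Cpt2 was absent. The median percentile of members was 55.6 and 53.4 in wild type, 52.0 and 57.0 in Ppara knockout, 51.0 and 50.3 in Cpt2 knockout and 46.2 and 47.4 in double knockout. All 4 Cpt2-null values lay under all 4 Cpt2-intact values. The means were 48.7 ± 2.29 (SD, n = 4) in Cpt2-null and 54.5 ± 2.22 (SD, n = 4) in Cpt2-intact libraries, a difference of -5.79 points. The separation was lost over peaks with −log10 q of at least 20 (a difference of -5.50 points) and in percentiles of the whole list (-2.64 points). The difference was -3.86 points with Ppara and -7.72 without it. Because percentiles are shared out over a fixed set, the distal median moved the other way, by 5.61 points. By Ppara status the median differed by -1.91 points and the sides overlapped. As the median is a score over members chosen with earlier results known, it is given without a p-value.

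The Cpt2 difference was spread over many members, with a median of -3.49 points per member. By the means of 4 libraries, 3944 of 5859 members (67.3%) were lower in Cpt2-null livers, against 2017 of 5399 distal regions (37.4%) and 5961 of all 11258 (52.9%). All 4 Cpt2-null values lay under all 4 Cpt2-intact values in 131 members (2.24%), against a background of 1.55% of the 11258 regions, and above them in 24 members (0.41%), against 1.49%. Regions at a 5′ end alone differed by -6.00 points and did not overlap, while those at a 3′ end alone differed by 3.22 points and overlapped. By promoter GC the difference was -4.29, -5.11, -8.81 and -7.93 points over 4 bins from the lowest to the highest, and the sides overlapped in all bins but that of 63% to 68.3% GC. The part of GC content in the difference was not tested.

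No member passed the test by Cpt2 status. limma, fitted over all 11258 regions with Benjamini-Hochberg adjustment at 0.05, called 0 members against a background of 0%, and 494 members (8.43%) had an unadjusted p under 0.05, against 11.1% of all regions. The smallest p-values were those of Wipf3, an actin regulator, and Mfap1b, a spliceosome protein. Wipf3 had 69.6 and 65.9 in wild type, 50.6 and 58.0 in Cpt2 knockout, 78.5 and 85.1 in Ppara knockout and 27.3 and 21.6 in double knockout. Its difference was -35.4 ± 4.72 points (SE), with a limma adjusted p of 0.233. Mfap1b differed by -32.6 ± 4.84 points, with a limma adjusted p of 0.247.

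**Figure D3:**
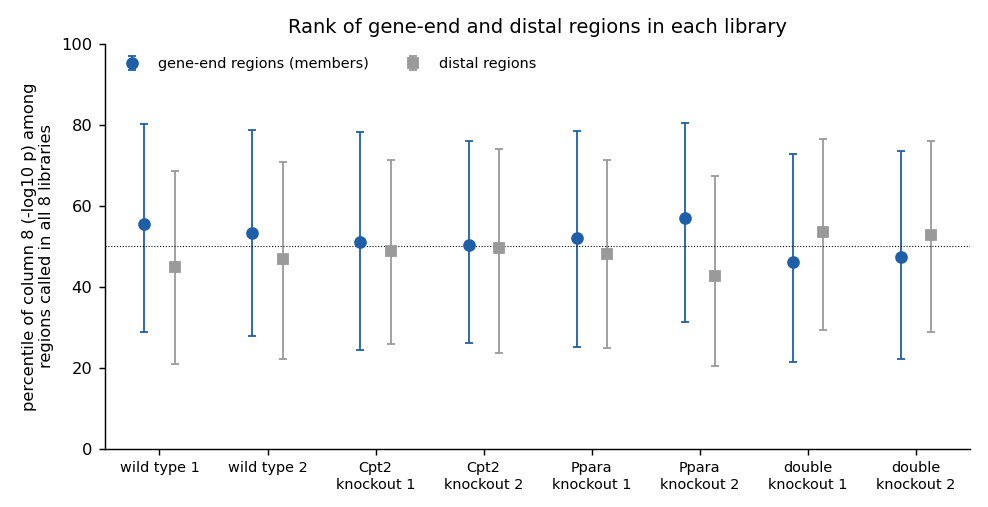
Median percentile of members (circles) and distal regions (squares) in each library, on a scale from 0 to 100 over the 11258 regions called in all 8 libraries; the bars run from the first to the third quartile of the regions. Members lie between 46.2 and 51.0 in the 4 Cpt2-null and between 52.0 and 57.0 in the 4 Cpt2-intact libraries.

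By Ppara status, limma called 84 members (1.43%), against a background of 2.73% of the 11258 regions. Of these, 43 rose in Ppara-null livers (0.734% of members, background 1.75%) and 41 fell (0.7%, background 0.977%). The sides did not overlap in 77 of the 84. The count moved with single libraries: leaving out wild type 2, Cpt2 knockout 1, double knockout 1 or double knockout 2 left 0 members called, leaving out wild type 1 or Cpt2 knockout 2 left 6, and leaving out Ppara knockout 2 left 26. Library numbers in the peak names were 441 and 443 in wild type, 446 and 4717 in Cpt2 knockout and 6831 to 6834 in Ppara-null livers. Any difference in handling that these numbers follow therefore cannot be told apart from Ppara status.

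By −log10 p, the 3 members that rose furthest lay at the 3′ ends of genes for secreted liver proteins, and none of the 3 was called when regions were ranked by fold over background in place of −log10 p. The region holding the 3′ end of Apoa5 and lying upstream of Zpr1 (chromosome 9, 46271484 to 46272409) had percentiles of 18.8 and 0.879 in wild type, 12.8 and 1.05 in Cpt2 knockout, 76.1 and 95.7 in Ppara knockout and 75.4 and 65.7 in double knockout. It was low in all Ppara-intact and high in all Ppara-null libraries, a difference of 69.8 ± 7.28 points (SE, limma adjusted p = 0.0160). Ranked by fold the difference was 2.87 points (limma adjusted p = 0.737). Apoa5 is an apolipoprotein that lowers plasma triglyceride.

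The widest member, at the 3′ end of Ahsg (chromosome 16, 22898263 to 22900600), had 42.7 and 22.9 in wild type, 19.8 and 29.3 in Cpt2 knockout, 96.6 and 98.4 in Ppara knockout and 96.4 and 96.8 in double knockout. It rose by 68.4 ± 5.96 points (limma adjusted p = 0.0111), and by 20.3 points without passing when ranked by fold (limma adjusted p = 0.0802). Apoa1, the main protein of HDL, had members at both ends. Its 3′ region (chromosome 9, 46230045 to 46231240) had 8.16 and 0.773, 0.871 and 3.34, 70.5 and 71.1, and 48.5 and 72.9 in the same order, and rose by 62.5 ± 6.50 points (limma adjusted p = 0.0160), or 2.42 points without passing when ranked by fold (limma adjusted p = 0.760). Its 5′ region, at the start, had 55.2 and 32.0, 30.9 and 16.2, 50.3 and 75.1, and 37.6 and 57.1, with sides that overlapped and a difference of 21.4 ± 9.19 points (limma adjusted p = 0.236).

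The other members named for their rise lay by either end of a gene. At the facing 3′ ends of Mst1, a secreted growth factor-like protein, and Apeh, a peptidase, the percentiles were 24.1 and 25.3 in wild type, 17.7 and 6.33 in Cpt2 knockout, 78.7 and 74.1 in Ppara knockout and 78.7 and 74.8 in double knockout. The difference was 58.2 ± 4.81 points (limma adjusted p = 0.0107), and 12.2 points when ranked by fold (limma adjusted p = 0.216). A region 400 bp from the 3′ end of Tat, the fasting-induced tyrosine aminotransferase, had values of 0.0622 to 5.06 with Ppara and 45.8 to 82.3 without it and rose by 55.6 ± 8.46 points (limma adjusted p = 0.0332), and by fold it differed by 0.264 points (limma adjusted p = 0.979). A region 711 bp from an end of Rbfox2, a splicing regulator with no strand in the table, rose by 58.8 ± 4.69 points (limma adjusted p = 0.0107) and by 48.2 points when ranked by fold (limma adjusted p = 0.0453). A region 138 bp from the 5′ end of Asmt rose by 57.7 ± 8.99 points (limma adjusted p = 0.0342) and did not pass when ranked by fold (51.1 points, limma adjusted p = 0.0667). The start of Serpina1a, an alpha-1-antitrypsin gene with close copies beside it, rose by 37.8 ± 6.84 points (limma adjusted p = 0.0461), and by fold it did not pass (38.2 points, limma adjusted p = 0.101). Reads can be hard to place among such copies.

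Regions at 3′ ends alone made up 12 of the 43 members that rose and 1 of the 41 that fell, and 3.36% of all members. Called higher were 12 of these 197 regions, against 154 of 5399 distal regions and 1.75% of all 11258 regions. Called lower was 1 of the 197, against 69 distal regions and 0.977% of all. Among the 12, the regions of Ahsg, Apoa1, Mst1 and Apeh, and Tat were not called when ranked by fold. The region by Apoa5 and Zpr1 is near a 3′ and a 5′ end and is not among the 12. For all 197 regions at a 3′ end alone, the median percentile was 40.2 and 40.4 in wild type, 43.9 and 38.1 in Cpt2 knockout, 47.1 and 45.3 in Ppara knockout and 51.6 and 52.2 in double knockout. It was higher in every Ppara-null than in every Ppara-intact library, by 8.42 points. The sides overlapped when ranked by fold (4.73 points) and in lists of equal number (3.13 points), alternatives chosen after seeing the data. Distal regions supplied 154 of the 197 regions of the series that rose and 69 of the 110 that fell.

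Of the 41 members that fell, 35 lay by a 5′ end alone, as did 76.2% of all members. Slc22a5 (chromosome 11, 53891125 to 53892178), which brings carnitine into the cell for fatty acid oxidation, had percentiles of 90.4 and 81.0 in wild type, 71.7 and 77.2 in Cpt2 knockout, 21.8 and 24.4 in Ppara knockout and 14.9 and 0.169 in double knockout. It fell by 64.8 ± 5.48 points (SE, limma adjusted p = 0.0107), and by 47.2 points when ranked by fold (limma adjusted p = 0.0469). Its peaks covered 693 and 675 bp in wild type, 816 and 755 bp in Cpt2 knockout, 654 and 823 bp in Ppara knockout and 897 and 298 bp in double knockout, so the widths overlapped. The shared start of Dhcr7, the last reductase of cholesterol synthesis, and Nadsyn1 had 75.8 and 75.7, 73.2 and 51.8, 37.2 and 23.1, and 13.3 and 11.0 in the order wild type, Cpt2 knockout, Ppara knockout and double knockout. It fell by 48.0 ± 6.50 points (limma adjusted p = 0.0277), and by 40.1 points when ranked by fold (limma adjusted p = 0.0491).

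The other large falls were at Smarcd2, a subunit of SWI/SNF chromatin remodellers whose region also lies by Tcam1, at A430005L14Rik, at Tspan14, a tetraspanin, and at Ap5s1, an adaptor subunit. Their differences were -56.2, -48.1, -48.0 and -47.1 points, with limma adjusted p of 0.0262, 0.0280, 0.0294 and 0.0422. Smarcd2 had 59.6 to 87.9 with Ppara and 0.924 to 23.3 without it. Ranked by fold, A430005L14Rik kept its call (-33.2 points, limma adjusted p = 0.0453), and Smarcd2, Tspan14 and Ap5s1 did not pass (limma adjusted p of 0.129, 0.135 and 0.0895).

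**Figure D4:**
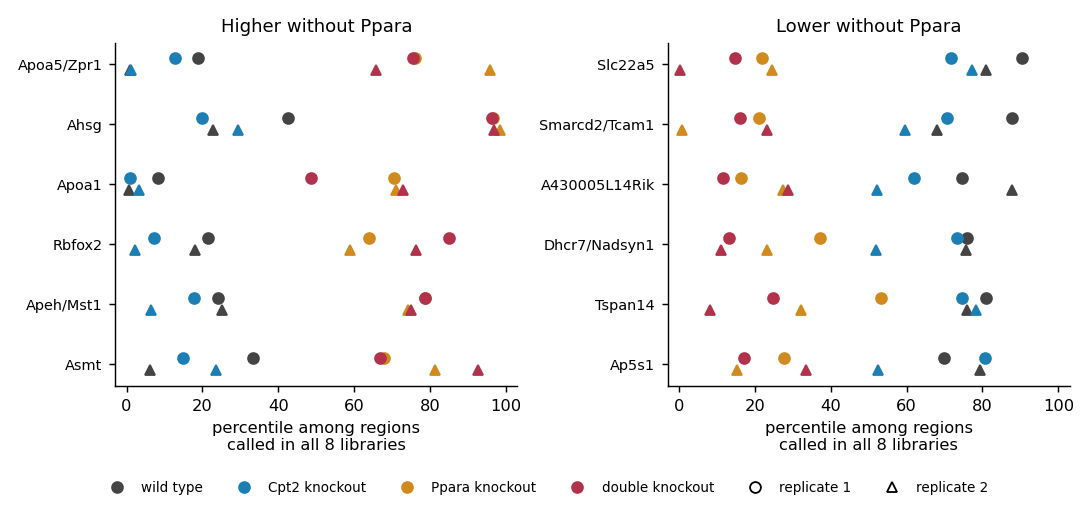
Percentile among the 11258 regions called in all 8 libraries, for each library, at the 6 members that rose and the 6 that fell furthest by Ppara status; colours give the genotype and symbols the replicate. At each of the 12 regions the 4 Ppara-null and the 4 Ppara-intact values do not overlap; Apoa5/Zpr1 runs from 0.879 to 18.8 against 65.7 to 95.7.

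The gene lists are read against all members, of which 1.43% were called by Ppara status (2.73% of the 11258 regions) and 53.9% were lower by mean in Ppara-null livers. At these shares a list of this size would hold few called members or none. Among 24 members of the list of Ppara targets used here 0 were called, with 13 higher and 11 lower by mean. The median difference was 0.838 points against -1.01 for all members. Slc22a5, the member that fell furthest, was not on that list. It was on the list of mitochondrial beta-oxidation, where 1 of 14 members was called, lower. A member needs a peak in every Ppara-null library, so target regions with no peak in those libraries could not be among these 24. The gene-end regions of Cyp4a10, Acot1 and Fgf21 were called in at most 4 libraries. Which libraries called them is not shown here. Pdk4, which blocks pyruvate dehydrogenase, had 88.3 and 90.4 in wild type, 90.3 and 95.2 in Cpt2 knockout, 85.9 and 90.4 in Ppara knockout and 98.1 and 96.9 in double knockout. Eci1, a mitochondrial enoyl-CoA isomerase whose region also lies near an end of Rnps1, had 84.5 to 95.6 with Ppara and 97.6 to 98.3 without it, a difference of 8.74 ± 4.18 points (limma adjusted p = 0.280). Slc27a1, a fatty acid transporter, differed by -44.3 ± 8.64 points without overlap and did not pass (limma adjusted p = 0.0545).

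All 7 members of fatty acid and triglyceride synthesis were lower by mean in Ppara-null libraries, with a median difference of -14.3 points, and 0 were called. Fads2, a fatty acid desaturase, had 56.1 to 84.3 with Ppara and 30.9 to 66.1 without it. In cholesterol synthesis 1 of 20 members was called, Dhcr7, and 14 were lower by mean. Clock genes had 9 of 11 members lower by mean and 0 called. Liver secreted proteins had 3 of 21 members called, all higher, where 0.734% of all members and 1.75% of all regions were called higher.

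By pairs of genotypes, limma called 10 members in double knockout against wild type (0.171%, background 0.417% of the 11258 regions). Of these, 7 rose (background 0.382%) and 3 fell (background 0.0355%). The largest rise was at the 3′ end of Slc25a47, a mitochondrial carrier made in the liver, with 20.7 and 29.7 in wild type and 95.5 and 97.0 in double knockout, a difference of 71.1 ± 7.54 points (SE, limma adjusted p = 0.0409). Ranked by fold this difference was 15.1 points (limma adjusted p = 0.226). Slc22a5 fell by 78.2 ± 7.75 points (limma adjusted p = 0.0409), and did not pass when ranked by fold (limma adjusted p = 0.0800). Leaving out any 1 of the 8 libraries left 0 members called in this pair.

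Cpt2 knockout against wild type gave 0 called members (background 0%), with 175 (2.99%) at an unadjusted limma p under 0.05 against 3.68% of all regions. Ppara knockout against wild type gave 0 (background 0%), with 806 (13.8%) against 18%, and the interaction 0 (background 0%), with 436 (7.44%) against 9.05%. The 2 smallest p of the interaction were at Arhgap18 and at a second region of Slc25a47. Arhgap18, a GTPase-activating protein, had 14.8 and 17.2 in wild type, 23.4 and 25.5 in Cpt2 knockout, 75.5 and 74.9 in Ppara knockout and 13.8 and 10.3 in double knockout. It was high in Ppara knockout alone, and was still called as a rise by Ppara status (23.45 ± 4.20 points, limma adjusted p = 0.0452). The Slc25a47 region 329 bp from the gene's 5′ end had 94.9 and 90.1, 77.4 and 97.0, 21.7 and 10.9, and 95.2 and 93.7 in the same order. It was low in Ppara knockout alone, and was still called as a fall by Ppara status (-34.46 ± 6.10 points, limma adjusted p = 0.0441). In double knockout both regions lay near their wild type values. For the interaction both had a limma adjusted p of 0.356.

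By the median over members, peaks were narrower where Ppara was absent. The median number of base pairs that a library's peaks covered in a member was 632 and 664 in wild type, 637 and 690 in Cpt2 knockout, 472 and 505 in Ppara knockout and 519 and 432 in double knockout. The sides did not overlap, with means of 482 ± 38.7 (SD, n = 4) in Ppara-null and 656 ± 26.8 (SD, n = 4) in Ppara-intact libraries, a difference of -174 bp. It was -100.2 bp over the regions whose peaks covered at least 50% of them in every library. Distal regions narrowed by 91 bp. Divided by the median width of all peaks in the same library, the member width was 1.73 to 1.82 with Ppara and 1.31 to 1.51 without it. The Ppara-null lists were also shorter and their median fold over background lower (5.65 to 6.08 against 6.56 to 7.46). The part of these in the width was not tested. Some members that rose by −log10 p went the other way, without overlap. At the 3′ end of Ahsg, peaks covered 687 to 1056 bp with Ppara and 1494 to 2167 bp without it. The ranges were 311 to 451 and 737 to 922 bp by Apoa5 and Zpr1, and 603 to 936 and 1085 to 1191 bp near Tat. They overlapped at the 3′ regions of Apoa1 and of Mst1 and Apeh.

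Summits lay close to gene ends, which the rule favours, since members were taken within 1 kb of a gene end. The median distance from the summit of a member's strongest peak to the nearest gene end was 86 and 87 bp in wild type, 86 and 102 bp in Cpt2 knockout, 105 and 112 bp in Ppara knockout and 113 and 108 bp in double knockout. The Ppara-null values lay above the Ppara-intact ones, with means of 109.5 ± 3.70 and 90.3 ± 7.85 bp (SD, n = 4 each), a difference of 19.3 bp. Over peaks with −log10 q of at least 20 it was 7.75 bp and the sides overlapped. The summits of all 8 libraries fell within 100 bp of each other in 2366 members (40.4%) and were spread over more than 300 bp in 1062 (18.1%). Near a 5′ end, 46.1% to 55.9% of summits lay upstream of it.

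**Figure D5:**
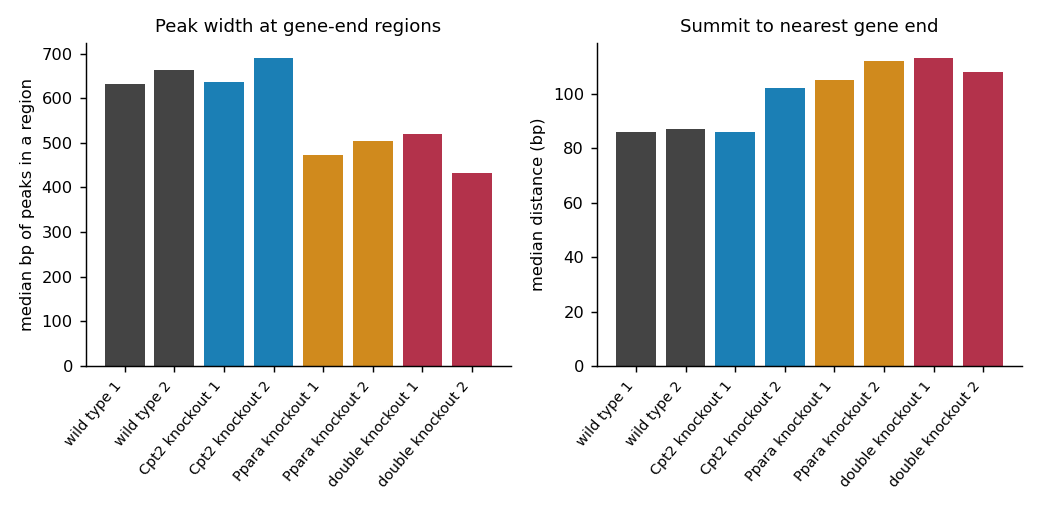
Left, the median number of base pairs covered by peaks in a member in each library; right, the median distance (bp) from the summit of the strongest peak to the nearest gene end. Colours give the genotype; widths are 432 to 519 bp in Ppara-null and 632 to 690 bp in Ppara-intact libraries, and distances 105 to 113 bp and 86 to 102 bp.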

How the data were processed

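The data are ATAC-seq peak lists of 8 mouse liver libraries. The submitters' processing notes name BWA, MACS2 2.1.0 and mm10. Read filters and the transposase offset are not given in the sources used here. In each list the authors deposited, per peak, a fold over local background (ratio), a −log10 p, a −log10 q and a score. A further deposited table gives consensus positions, per the file headers. There are no read counts, so sequencing depth is unknown and no interval that needs it is given.

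Peaks were joined to consensus regions by at least 1 bp of overlap (Python 3, pandas). A region took its highest −log10 p in each library. Percentiles over the 11258 regions called in all 8 libraries were fitted with limma 3.58.1 in R 4.3.3, with 1 mean per genotype and Benjamini-Hochberg adjustment over all 11258 regions at 0.05. On simulated shifts of 40 points by Ppara status the fit recovered 140 of 200 regions with 6 false calls, and of 10 or 20 points 0 of 200 each. Medians over members were planned with an exact permutation test over libraries and are given as descriptions without p-values. The alternatives were ranking by fold, the mean over peaks, normal scores, equal-number lists (18132 peaks), 50% cover, −log10 q of at least 20, other distances to gene ends, a replicate block and each library left out.

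Named members are the 6 highest and 2 lowest by mean percentile, the 3 widest and 2 narrowest, the 6 largest called differences in each direction by Ppara status, the 2 largest in each direction or 2 smallest p in the other comparisons, the top 2 and most shifted of each gene list, Cpt2, Ppara and those at the distance limit. A few members that this rule names are not reported here. Members and lists were chosen with earlier results of these data known. Promoters came from RefSeq (GRCm38.p6), and 4341 members held a start in that table.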

Additional observations from a re-analysis of the deposited data

Results flagged for a closer look

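Of 16 sets of 4 libraries examined (4 medians over members, by each side of Ppara and Cpt2 status), 1 held a library apart from the rest. The median distance from summit to gene end was 102 bp in Cpt2 knockout 2 against 86, 87 and 86 bp in the other Ppara-intact libraries, a gap of 0.938 of the range of the 4; this is above the 95% critical value of Dixon's gap test. Chance flags about 1 in 20 such sets. The peak names of Cpt2 knockout 2 carry library number 4717, against 441, 443 and 446 in the other Ppara-intact libraries. A link was not tested.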

How the results depend on the processing

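For Cpt2 status, the difference in the members' median kept its direction under all 17 alternatives, among them the replicate block, which cannot change it. Without 1 library it ran from -6.62 to -4.95 points. It was -5.50 with −log10 q of at least 20 and -2.64 in whole-list percentiles, where the sides overlapped. The replicate block limits only the swaps, to 36 that cannot reach 0.05, so the difference stays at -5.79 by construction. For Ppara status the difference was -14.2 in whole-list percentiles, which differ with list length, and -4.03 to -0.428 without 1 library. The width difference was -174 bp with the replicate block and -186 to -157 bp without 1 library. The summit difference was 14.9 bp with 50% cover and 7.75 bp with −log10 q of at least 20, where the sides overlapped, and 17.8 to 23.2 bp without 1 library. With the replicate block the width and summit differences are also unchanged by construction (-174 and 19.3 bp). Deviations of replicate 1 from the mean of its genotype correlated between genotypes by -0.036 to 0.078, so the replicate numbers showed no pairing of libraries.

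Members called by Ppara status numbered 23 with the replicate block, 179 with normal scores, 46 ranked by fold and 19 in equal-number lists, and 0 to 60 without 1 library. For double knockout against wild type they numbered 0 with the replicate block, ranked by fold or in equal-number lists, 72 with normal scores, 28 with −log10 q of at least 20 and 15 with 50% cover, and 0 without any 1 library. For Ppara knockout against wild type they numbered 25 with normal scores, 1 with 50% cover and 9 with −log10 q of at least 20, and 0 without any 1 library. The other 3 comparisons gave 0 under every alternative. The causes were not tested. Of 19 named regions called by Ppara status, each lost its call under 4 to 13 alternatives and 0 changed direction. The CCAAT difference, whose alternatives were chosen after seeing the data, was 12.3 to 23.1 points, and with −log10 q of at least 20 it was below 0 in 1 library. With 2 libraries per genotype and no read counts, simulated shifts of 10 or 20 points by Ppara status were not recovered. The other comparisons were not simulated.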

Other observations

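Other members called by Ppara status, picked here after their values were seen, lay at genes of varied roles. The start of Acox3, a peroxisomal acyl-CoA oxidase, fell by 39.2 points. That of Xbp1, a transcription factor of the unfolded protein response, fell by 30.5 points, and that of Mbtps1, the protease that releases SREBP and ATF6 factors, fell by 33.0 points. The start of Ugdh, which makes UDP-glucuronate, fell by 25.7 points. A region 112 bp from the 3′ end of Bcat2, the mitochondrial branched-chain aminotransferase, was the 1 member at a 3′ end alone that fell. It had percentiles of 84.8 and 89.8 in wild type, 87.0 and 92.4 in Cpt2 knockout, 31.0 and 17.8 in Ppara knockout and 73.3 and 83.2 in double knockout, a difference of -37.2 points by Ppara status and of -9.05 in double knockout against wild type (limma adjusted p = 0.606). Among those that rose were the starts of Chek1, a cell-cycle checkpoint kinase, and of F11r, a tight junction protein, by 29.2 and 34.3 points. Chek1 had 55.1 and 53.5 in Ppara knockout, 22.7 and 16.5 in double knockout and 3.42 to 14.8 with Ppara. Others that rose were regions near the 3′ ends of Ffar4, a fatty acid receptor, and Slc11a1, a metal transporter of phagocytes, by 45.2 and 44.7 points. All were called by limma with adjusted p of 0.05 or less over the 11258 regions, on the same fit as the members named in the report.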
